A study of Mus musculus with 9 samples.

Results

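The genes described here carry glucose through glycolysis to pyruvate and lactate, and through the pentose phosphate pathway to pentoses. They were listed by symbol and matched to the mouse Ensembl identifiers of the count files. The listing rule names no measured value, but the list was drawn up with earlier results of these data known. All 36 listed genes were matched, of 55487 identifiers counted. They comprise 3 glucose transporters, 5 genes of hexose phosphorylation and isomerization, 5 of the phosphofructokinase step, 3 of the aldolase and triose phosphate step, 6 of lower glycolysis, 4 of lactate formation and export, 3 of pyruvate dehydrogenase and its kinases, 3 of the oxidative pentose phosphate branch and 4 of the non-oxidative branch. RNA was sequenced from unstimulated RAW264.7 cells, a mouse macrophage-like line transformed by a leukaemia virus, grown in IMDM medium with 10% FCS. One group of 3 libraries was wild-type for C/EBPδ. This transcription factor binds DNA through a basic domain, forms dimers through a leucine zipper and activates genes through an N-terminal transactivation domain. The C/EBPδ knock-out macrophages (3 libraries) and the ΔTAD macrophages (3 libraries) were both edited with CRISPR-Cas9 on both alleles of the endogenous gene. According to the study's methods, clones whose deletion shifted the reading frame served as knock-outs. In ΔTAD clones the deletion kept the frame, so that a protein without the transactivation domain is made from its own promoter. The design text speaks of 3 independent clones. Whether each wild-type library is also a clone is not given in the sources used here. For its experiments with lipopolysaccharide the paper names fewer clones of each genotype. The p-values therefore measure the spread between these libraries, which may not be that between clones.

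Glycolysis splits glucose into pyruvate and yields ATP and NADH, and the cell regains NAD by turning pyruvate into lactate, which leaves through monocarboxylate transporters. The oxidative branch of the pentose phosphate pathway draws glucose 6-phosphate off for NADPH, and the non-oxidative branch exchanges carbon between pentoses and glycolytic intermediates. Macrophages lean on glycolysis when they are activated by microbial products, and NADPH feeds both their oxidative burst and their defence against oxidants. Several steps are shared by isozymes, and pyruvate dehydrogenase, which sends pyruvate into the mitochondrial citric acid cycle, is switched off by its kinases.

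Each library held between 16113306 and 20981829 counts on genes, so that a floor of 3 counts corresponds to 0.143 to 0.186 CPM (the count scaled to the library size). The floor covers counting error only. Cebpd, the edited gene itself, stood at 6.13, 7.29 and 6.12 CPM in wild-type libraries, at 5.22, 5.50 and 5.61 CPM in knock-out and at 4.90, 5.23 and 6.19 CPM in ΔTAD libraries, and neither difference from wild-type was called (adjusted p = 0.085 and 0.0931 by edgeR). These values span the whole gene, of which the edit removes a part, and therefore do not check the labels. ΔTAD replicate 1 stood apart, since 11.7% of its gene counts fell on ribosomal RNA genes against 0.346% to 1.22% in the other libraries. All 10 macrophage markers were detected. Their summed level was 3664 to 3874 CPM in wild-type, 4800 to 5198 CPM in knock-out and 7354 to 7520 CPM in ΔTAD libraries. Of this sum, Lyz2 alone gave a mean of 1167, 2114 and 4192 CPM. In knock-out macrophages 7 markers rose and 1 fell, where 22.8% and 22.4% of all genes tested did. In ΔTAD macrophages 8 rose and 1 fell, where 26.3% and 23.4% of all genes tested did. Markers of fibroblasts, T cells, B cells and epithelial cells each summed to at most 0.288 CPM in any library, and 5 of 6, 3 of 5, 2 of 4 and 3 of 4 of them had no count in any library. The part of the macrophage markers' difference in the results below was not tested. In a bulk sample, fewer cells with a transcript and less of it in each cell cannot be told apart.

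Compared to wild-type macrophages, knock-out macrophages had more of the members lowered than raised, while ΔTAD macrophages had about as many genes raised as lowered. Levels are given as CPM scaled by TMM (trimmed mean of M values), which corrects for differences in RNA composition between libraries. A gene was called changed at an adjusted p under 0.01 by edgeR's quasi-likelihood test, adjusted after Benjamini-Hochberg over the 14312 genes tested, and a change is a log2 fold change with its standard error. Ldhb, the lactate dehydrogenase subunit that predominates in heart, had 0 counts in all 9 libraries, so that 35 members were tested. In knock-out against wild-type macrophages 8 members rose, 20 fell and 7 were not called. These calls cover 80.0% of the members tested, where 45.2% of all genes were called (22.8% higher, 22.4% lower). In ΔTAD against wild-type macrophages 13 rose, 11 fell and 11 were not called. That is 68.6% of the members against 49.7% of all genes (26.3% higher, 23.4% lower). In knock-out against ΔTAD macrophages 2 members (Hk3 and Adpgk) were higher, 19 were lower and 14 were not called. That is 60.0% of the members against 33.0% of all genes (13.9% higher, 19.1% lower). The balance of all genes depends on the settings. Scaled by library size alone, 2281 genes were higher and 1024 lower in knock-out than in ΔTAD macrophages, against 1990 and 2740 with TMM, and without ΔTAD replicate 1 they were 2293 and 2274. In ΔTAD against wild-type macrophages library size alone gave 2585 higher and 3943 lower genes, against 3765 and 3350. The members gave 2 higher and 12 lower, and 10 higher and 12 lower, with library size alone. The members are abundant, with a median level of 221 CPM against 22.5 CPM for all genes tested, and abundant genes were called more often. Among the 7457 genes with at least 20 CPM, which include the 35 members, 59.1% were called in knock-out (29.5% lower), 62.4% in ΔTAD (35.4% higher) and 44.1% between the genotypes (28.6% lower in knock-out). Against wild-type, the members' log2 fold changes had a median of -0.16 in knock-out macrophages and 0.00 in ΔTAD macrophages, and knock-out against ΔTAD macrophages gave -0.17, where the abundant genes gave -0.01, 0.03 and -0.05.

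Few of these differences were large. The absolute log2 fold changes of the members had a median of 0.23 in knock-out macrophages and 0.21 in ΔTAD macrophages, where all genes tested gave 0.24 and 0.27. An absolute change of at least 0.5 was reached by 3 called members in knock-out and 5 in ΔTAD, where 19.0% and 22.5% of all genes reached it. Both comparisons share the 3 wild-type libraries, so that their calls are not independent. With that limit, 10 members fell in both genotypes (15.4% of all genes did), namely Hk2, Pfkp, Pfkfb3, Gapdh, Pgk1, Eno1, Pkm, Slc16a1, Pdha1 and G6pdx. The 6 that rose in both (17.3% of all genes) were Pfkm, Pfkfb4, Aldoc, Eno2, Pdk1 and Taldo1. A further 9 fell in knock-out without a call in ΔTAD macrophages (Slc2a3, Hk1, Gpi1, Pgam1, Ldha, Slc16a3, Pdk3, Pgd and Rpe), and all of these but Pdk3 and Rpe were also lower in knock-out than in ΔTAD macrophages. Of all genes 6.48% fell in this way. Hk3 rose in knock-out macrophages without a call in ΔTAD (4.79% of all genes), and 6 members rose in ΔTAD macrophages without a call in knock-out (8.43% of all genes), namely Slc2a6, Pfkl, Aldoa, Tpi1, Pgls and Tkt.

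**Figure D1:**
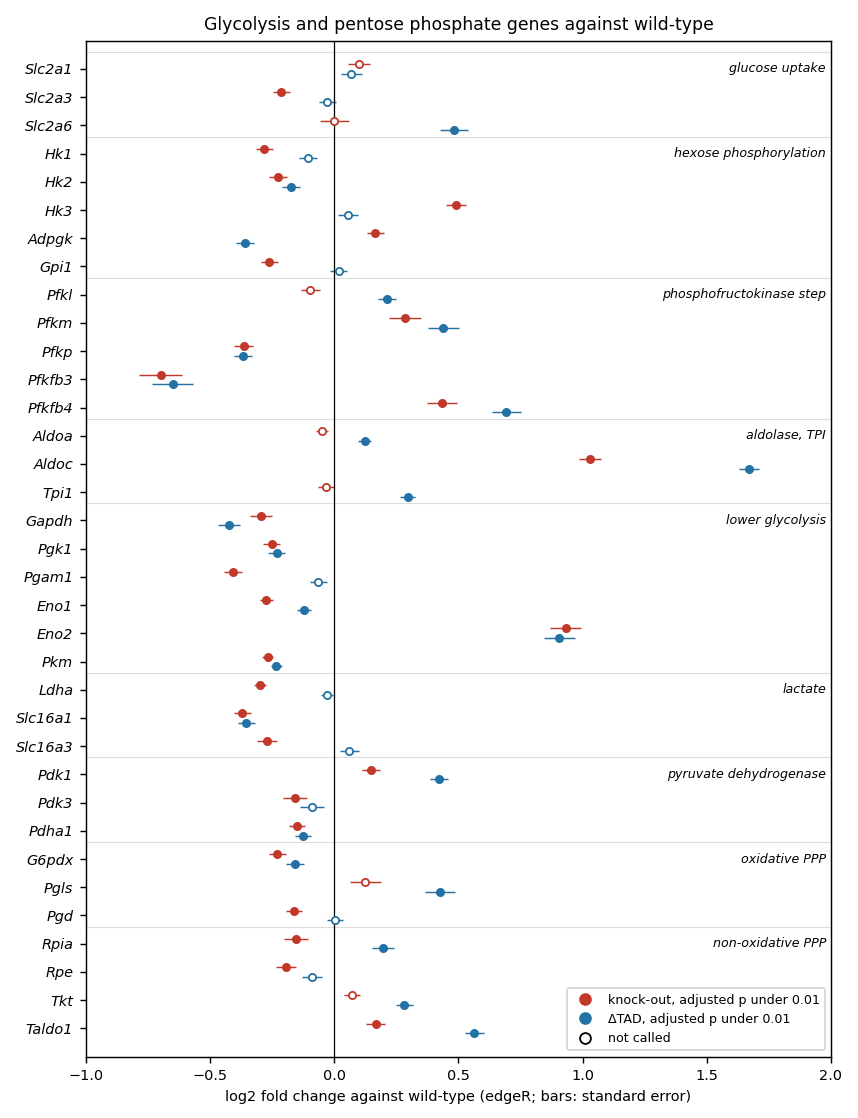
Log2 fold change of the 35 tested members against wild-type macrophages (x axis, with the standard error as bars), ordered by their place in the pathway. Red points are knock-out and blue points ΔTAD macrophages, and filled points passed an adjusted p under 0.01. Aldoc stands farthest to the right (1.03 and 1.67) and Pfkfb3 farthest to the left (-0.70 and -0.65).

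The largest changes were found in Aldoc and Eno2, isozymes of aldolase and enolase that are best known from brain. Aldoc (chromosome 11, 78322968 to 78327781 of GRCm38, plus strand) stood at 38.5, 35.9 and 39.2 CPM in the wild-type libraries, at 79.2, 78.6 and 74.3 CPM in knock-out and at 117, 119 and 124 CPM in ΔTAD. All edited libraries lay above all wild-type libraries, and the ΔTAD libraries above the knock-out libraries. It was 2.04-fold higher in knock-out (log2 fold change 1.03 ± 0.0426, adjusted p = 3.41e-16) and 3.18-fold higher in ΔTAD macrophages (1.67 ± 0.0404, adjusted p = 6.34e-21), and knock-out lay below ΔTAD macrophages (-0.64 ± 0.0364, adjusted p = 6.78e-13). Eno2 (chromosome 6, 124760053 to 124769673, minus strand) had 42.7, 41.1 and 42.4 CPM in wild-type, 80.7, 77.0 and 82.9 CPM in knock-out and 72.3, 72.7 and 90.5 CPM in ΔTAD libraries. The edited groups overlapped each other and neither reached the wild-type range, and ΔTAD replicate 3 was the highest library. The increase was 1.91-fold in knock-out (0.93 ± 0.0635, adjusted p = 5.12e-12) and 1.87-fold in ΔTAD macrophages (0.91 ± 0.0633, adjusted p = 6.86e-12), and between them the difference was 0.02 ± 0.0579 (adjusted p = 0.754).

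Of the bifunctional enzymes that make and break fructose 2,6-bisphosphate, the main activator of phosphofructokinase, Pfkfb3 and Pfkfb4 moved in opposite directions. Pfkfb1 and Pfkfb2, which are outside the list, were tested and not called against wild-type in either genotype. Pfkfb3 (chromosome 2, 11471433 to 11554077, minus strand), the form with the highest kinase activity, had 31.0, 27.6 and 29.4 CPM in wild-type libraries. It had 20.5, 16.3 and 17.4 CPM in knock-out and 21.1, 19.0 and 16.6 CPM in ΔTAD libraries. Every edited library lay below every wild-type library, while the edited groups overlapped each other. It fell to 0.616 of wild-type in knock-out (-0.70 ± 0.085, adjusted p = 1.5e-07) and to 0.637 in ΔTAD macrophages (-0.65 ± 0.084, adjusted p = 3.41e-07). Pfkfb4 (chromosome 9, 108991778 to 109032228, plus strand) had 23.3, 23.3 and 21.9 CPM in wild-type, 29.3, 31.4 and 32 CPM in knock-out and 36.2, 36.8 and 37.6 CPM in ΔTAD libraries. The groups did not overlap, and ΔTAD was the highest. Pfkfb4 rose 1.35-fold in knock-out (0.43 ± 0.0611, adjusted p = 1.45e-06) and 1.62-fold in ΔTAD macrophages (0.69 ± 0.0593, adjusted p = 2.93e-10).

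Of the phosphofructokinase genes themselves, which encode the committed step of glycolysis, each behaved in its own way. Pfkl, the liver-type subunit and the highest of the 3 per annotated exon length, had 277, 259 and 259 CPM in wild-type, 247, 250 and 247 CPM in knock-out and 299.7, 307 and 315 CPM in ΔTAD libraries. The 3 groups did not overlap, but only the increase in ΔTAD macrophages passed the test (0.21 ± 0.0368, adjusted p = 2.18e-05, but 0.13 and adjusted p = 0.098 with scaling by library size alone), whereas knock-out differed by -0.10 ± 0.037 (adjusted p = 0.0308). Pfkp, the platelet-type subunit, which had more CPM than Pfkl in wild-type (mean 348 against 265) and knock-out macrophages (270.4 against 248), fell by 0.37 on the log2 scale in both genotypes, and Pfkm, the muscle-type subunit, rose by 0.28 in knock-out and 0.44 in ΔTAD macrophages.

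**Figure D2:**
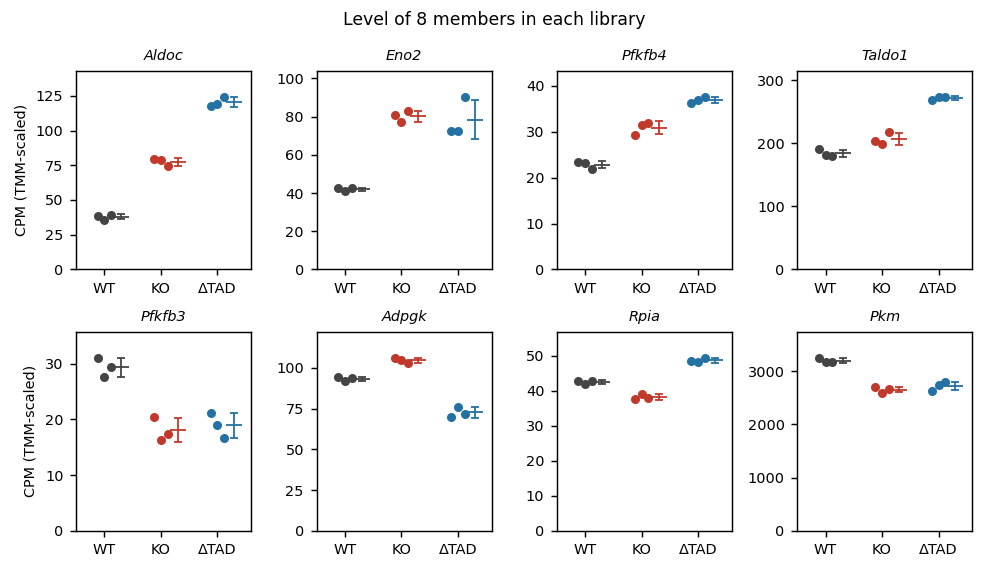
Level of 8 members in each library (points, TMM-scaled CPM on the y axis from 0), with the mean and standard deviation of the 3 libraries of a genotype. Aldoc reaches 124 CPM in ΔTAD against at most 39.2 CPM in wild-type libraries, Pfkfb3 is lower in every edited library, and Adpgk and Rpia lie on opposite sides of wild-type in the edited genotypes.

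Bases before the start site are printed below for 5 members that were called in both genotypes. They come from RefSeq's promoter windows on GRCm38.p6 and run 5′ to 3′ on the gene's strand. Aldoc and Eno2 rose most, and Pfkfb3 fell most. Pgk1 and Hk2 fell by less in both genotypes and were picked because they carry several of the letters searched. Where the annotated gene begins before the RefSeq start, only the bases before the gene are shown. Capitals mark ACGTG (the core of the hypoxia response element), CCAAT (the box bound by NF-Y) and GCAAT (part of the C/EBP consensus) on either strand. The stretches cover chr11:78322823-78322967 (plus strand), chr6:124769674-124769923 (minus), chr2:11554078-11554179 (minus), chrX:106186850-106187099 (plus) and chr6:82774455-82774704 (minus).
Aldoc: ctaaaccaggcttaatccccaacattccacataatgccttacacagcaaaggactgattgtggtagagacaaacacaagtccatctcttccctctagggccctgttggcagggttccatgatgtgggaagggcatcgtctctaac
Eno2: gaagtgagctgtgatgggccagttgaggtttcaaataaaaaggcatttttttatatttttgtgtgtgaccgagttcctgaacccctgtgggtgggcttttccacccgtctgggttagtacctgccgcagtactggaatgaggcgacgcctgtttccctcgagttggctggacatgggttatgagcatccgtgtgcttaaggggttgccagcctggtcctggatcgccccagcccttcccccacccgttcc
Pfkfb3: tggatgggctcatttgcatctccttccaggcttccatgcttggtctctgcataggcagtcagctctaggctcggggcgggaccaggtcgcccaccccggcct
Pgk1: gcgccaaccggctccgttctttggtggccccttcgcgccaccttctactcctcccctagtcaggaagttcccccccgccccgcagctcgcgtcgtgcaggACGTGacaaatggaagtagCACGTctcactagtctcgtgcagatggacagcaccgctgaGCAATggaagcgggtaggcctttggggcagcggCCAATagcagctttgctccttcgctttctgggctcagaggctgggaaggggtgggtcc
Hk2: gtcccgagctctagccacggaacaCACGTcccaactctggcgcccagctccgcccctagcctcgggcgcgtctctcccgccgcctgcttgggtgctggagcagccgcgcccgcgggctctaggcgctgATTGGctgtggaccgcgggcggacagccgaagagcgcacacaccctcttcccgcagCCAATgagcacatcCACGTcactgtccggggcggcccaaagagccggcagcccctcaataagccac

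In the Pgk1 stretch ACGTG began 150 and 131 bases before the RefSeq start, GCAAT 91 and CCAAT 58 bases before it. In the Hk2 stretch ACGTG began 226 and 52 bases and CCAAT 122 and 66 bases before the start. The stretches of Aldoc, Eno2 and Pfkfb3 held none of these letters, but the whole windows of Aldoc and Pfkfb3 hold ACGTG outside the bases printed. In whole windows of 300 bases (250 before to 50 after the start), 35 members had an entry, and Slc2a3 had none. ACGTG was found on either strand in 15 of the 35 (42.9%), against 19.6% of 32851 promoters of the same length. CACGTG, the E-box, which contains ACGTG, was found in 3 members (8.57% against 7.15%), CCAAT in 14 (40% against 37.4%) and GCAAT in 8 (22.9% against 26.4%). The members' windows were also richer in G and C, with a median of 61.0% against 52.7%, and the part of base composition in the share of ACGTG was not tested. Among the 10 members that fell in both genotypes 6 held ACGTG, 5 CCAAT and 4 GCAAT, and among the 6 that rose in both these numbers were 2, 2 and 1. A match is a run of letters and not a binding site, and for 27 of the 35 entries the window lay within 150 bases of the annotated start, while that of Ldha lay 4329 bases away.

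Of the 3 glucose transporters 1 fell in knock-out and 1 rose in ΔTAD macrophages (22.4% and 26.3% of all genes did). Slc2a1, which encodes the widespread glucose transporter GLUT1, had 266, 255 and 263 CPM in wild-type, 269, 294 and 278 CPM in knock-out and 260, 268 and 294 CPM in ΔTAD libraries. The ΔTAD libraries overlapped both other groups, and no difference passed the test (0.10 ± 0.0433, adjusted p = 0.0567 in knock-out and 0.07 ± 0.0433, adjusted p = 0.179 in ΔTAD). It was the only tested member not called against wild-type in either genotype. Slc2a3 (GLUT3) fell in knock-out macrophages (-0.21 ± 0.034), and Slc2a6 rose in ΔTAD macrophages (0.48 ± 0.0563), where it stood at 47.0 to 52.2 CPM against 32.9 to 38.0 CPM in wild-type libraries.

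All 5 genes of hexose phosphorylation and isomerization were called in knock-out macrophages, 2 higher and 3 lower, and 2 in ΔTAD macrophages, both lower. Of all genes 45.2% were called in knock-out macrophages (22.8% higher, 22.4% lower), and 23.4% fell in ΔTAD macrophages. Gpi1, which turns glucose 6-phosphate into fructose 6-phosphate, had 740, 717 and 706 CPM in wild-type, 607, 593 and 605 CPM in knock-out and 704, 720 and 766 CPM in ΔTAD libraries. The knock-out libraries lay below all others (-0.26 ± 0.0334, adjusted p = 3.19e-07), and the ΔTAD libraries overlapped the wild-type libraries (0.02 ± 0.0333, adjusted p = 0.673). The mitochondria-bound hexokinases Hk1 and Hk2 fell in knock-out macrophages by 0.28 and 0.23 on the log2 scale, while Hk3, the form prominent in leukocytes, rose by 0.49 ± 0.04 (adjusted p = 1.46e-10) from 126 to 139 CPM in wild-type libraries to 181 to 190 CPM. In ΔTAD macrophages Hk2 fell (-0.17 ± 0.0356), and Hk1 and Hk3 differed by -0.11 (adjusted p = 0.012) and 0.05 (adjusted p = 0.253).

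Adpgk, an ADP-dependent glucokinase, was called in opposite directions in the edited genotypes. It had 94.1, 91.9 and 93.9 CPM in wild-type, 106.1, 104.8 and 102.7 CPM in knock-out and 69.9, 76.2 and 71.8 CPM in ΔTAD libraries. The 3 groups did not overlap, with wild-type in the middle. Adpgk rose in knock-out (0.16 ± 0.0343, adjusted p = 0.000241) and fell in ΔTAD macrophages (-0.36 ± 0.0355, adjusted p = 4.22e-09), and the rise alone was lost with scaling by library size (0.15, adjusted p = 0.0327). Rpia, which turns ribulose 5-phosphate into ribose 5-phosphate, showed the reverse, with 42.8, 42 and 42.8 CPM in wild-type, 37.6, 39.0 and 38.0 CPM in knock-out and 48.6, 48.1 and 49.4 CPM in ΔTAD libraries. Again wild-type lay between groups that did not overlap. Rpia fell in knock-out (-0.15 ± 0.0472, adjusted p = 0.00742) and rose in ΔTAD macrophages (0.20 ± 0.0454, adjusted p = 0.000637). The fall was close to the threshold and was not called with DESeq2 (adjusted p = 0.029) or without any one of the wild-type or knock-out libraries, and the rise was not called when libraries were scaled by their size alone (0.11, adjusted p = 0.192). Opposite calls were made for 1.26% of all genes, 0.692% higher in knock-out and lower in ΔTAD like Adpgk and 0.566% the reverse like Rpia. Both genes are among those the study picked from these libraries for its heatmaps, so that their directions are not independent evidence.

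Aldolase A, which forms the triose phosphates, and triose phosphate isomerase, which interconverts them, rose in ΔTAD macrophages and were not called in knock-out macrophages. Aldoa, the most abundant member by length, had 1961, 1859 and 1863 CPM in wild-type, 1847, 1808 and 1839 CPM in knock-out and 2006, 2063 and 2120 CPM in ΔTAD libraries. The ΔTAD libraries were the highest and the knock-out libraries the lowest, without overlap. The difference was 0.12 ± 0.0256 in ΔTAD (adjusted p = 0.000205, but 0.04 and adjusted p = 0.646 with scaling by library size alone) and -0.05 ± 0.0256 in knock-out macrophages (adjusted p = 0.111). Tpi1 rose by 0.30 ± 0.0314 in ΔTAD macrophages (adjusted p = 1.43e-08).

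In lower glycolysis, the steps from glyceraldehyde 3-phosphate to pyruvate, all members but Eno2 fell in knock-out macrophages (22.4% of all genes did). Pkm, the pyruvate kinase that makes the final ATP of the pathway, had 3247, 3163 and 3167 CPM in wild-type, 2701, 2593 and 2661 CPM in knock-out and 2628, 2731 and 2790 CPM in ΔTAD libraries. Every edited library lay below every wild-type library. Pkm fell by 0.27 in knock-out (SE 0.0229, adjusted p = 3.43e-10) and by 0.23 in ΔTAD macrophages (SE 0.0229, adjusted p = 3.56e-09), and between the edited genotypes the difference was -0.03 ± 0.0229 (adjusted p = 0.226). Pgk1, the kinase of the first ATP-yielding step, fell by 0.25 and 0.23, and Eno1 by 0.27 and 0.12. Pgam1, phosphoglycerate mutase, fell by 0.41 in knock-out macrophages (SE 0.0357, adjusted p = 4.89e-10) and differed by -0.06 in ΔTAD macrophages (adjusted p = 0.115). Gapdh, often taken as a reference gene, fell to 0.815 of wild-type in knock-out and to 0.745 in ΔTAD macrophages.

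Several of these genes have processed pseudogenes or paralogs, and reads that aligned to more than 1 place were set aside by the authors. Of the 50-base windows of their transcripts, 68.0% in Pgk1, 58.4% in Gapdh, 49.5% in Eno1 and 41.5% in Pgam1 also occur in transcripts of other genes. For Gapdh these are 230 genes, of which 215 are pseudogenes. Their counts rest on the remaining sequence, and their levels are uncertain. The exons of Rpe, Pdha1, G6pdx and Gpi1 overlap exons of opposite-strand genes over 17.9%, 16.1%, 13.6% and 11.5% of their length, and those of Pgls, Pkm and Pfkm overlap same-strand genes over 20.6%, 15.3% and 10.2%. The strand setting of the counting is not given in the sources used here, so that these values are uncertain too.

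All 3 detected genes of lactate formation and export fell in knock-out macrophages. Of all genes tested 22.4% fell, and of those with at least 20 CPM 29.5%. Ldha, whose enzyme reduces pyruvate to lactate, had 2026, 2036 and 1966 CPM in wild-type, 1623, 1605 and 1677 CPM in knock-out and 1935, 1983 and 1985 CPM in ΔTAD libraries. The knock-out libraries lay apart from the others, which overlapped. Ldha fell by 0.30 in knock-out macrophages (SE 0.024, adjusted p = 1.21e-10), differed by -0.03 in ΔTAD macrophages (adjusted p = 0.29) and was lower in knock-out than in ΔTAD macrophages (-0.27 ± 0.024, adjusted p = 3.33e-09). Slc16a3 (MCT4), the lactate exporter of glycolytic cells, also fell in knock-out macrophages (-0.27) and differed by 0.06 (adjusted p = 0.19) in ΔTAD macrophages. Slc16a1 (MCT1) fell in both, by 0.37 and 0.35. For Ldhb the absence of counts allows up to 0.143 to 0.186 CPM per library, and 21.0% of its 50-base windows occur in another transcript.

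Of pyruvate dehydrogenase and its kinases 3 genes were members. Pdha1, the catalytic subunit of pyruvate dehydrogenase, had 100.7, 104.2 and 103.3 CPM in wild-type, 95.0, 91.2 and 91.2 CPM in knock-out and 92.0, 94.7 and 95.3 CPM in ΔTAD libraries. The edited libraries overlapped each other and lay below wild-type. It fell by 0.15 in knock-out (adjusted p = 0.000402) and by 0.13 in ΔTAD macrophages (adjusted p = 0.00197), the latter not without wild-type replicate 2 (-0.11, adjusted p = 0.0124). Pdk1, a kinase that inactivates this enzyme, rose by 0.42 ± 0.0355 in ΔTAD macrophages (adjusted p = 2.27e-10) and by 0.15 ± 0.036 in knock-out macrophages (adjusted p = 0.00113), the latter not without knock-out replicate 3 (0.12, adjusted p = 0.0165). Pdk3 fell in knock-out macrophages by 0.16 (adjusted p = 0.00889), a call lost without replicate 1 or 2 of wild-type or without any one of the knock-out replicates, and with DESeq2 (adjusted p = 0.0239).

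Of the 7 pentose phosphate genes 1 rose and 4 fell in knock-out macrophages (22.8% and 22.4% of all genes did). The median log2 fold change of the 7 genes stood at -0.15, and the fall of Rpia was lost under 12 of 18 alternatives. In ΔTAD macrophages 4 rose and 1 fell (26.3% and 23.4% of all genes did), and the median of the 7 genes stood at 0.20. G6pdx, the NADPH-yielding entry enzyme, had 369, 353 and 348 CPM in wild-type, 307, 300.0 and 306 CPM in knock-out and 314, 321 and 324 CPM in ΔTAD libraries. The edited libraries all lay below wild-type, and it fell by 0.23 in knock-out (adjusted p = 4.82e-06) and by 0.16 in ΔTAD macrophages (adjusted p = 0.000403). Pgls, the lactonase that follows, rose in ΔTAD macrophages (0.42 ± 0.0597, adjusted p = 1.26e-06), and Pgd, the next dehydrogenase, fell in knock-out macrophages (-0.16 ± 0.0318, adjusted p = 0.00012).

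In the non-oxidative branch, Taldo1 (transaldolase, chromosome 7, 141392199 to 141402968, plus strand) had 191, 182 and 180 CPM in wild-type, 204, 199 and 217 CPM in knock-out and 269, 274 and 274 CPM in ΔTAD libraries. The groups did not overlap. It rose 1.48-fold in ΔTAD (0.56 ± 0.0383, adjusted p = 4.02e-12) and 1.12-fold in knock-out macrophages (0.17 ± 0.0385, adjusted p = 0.000659), the latter not without knock-out replicate 3 (0.12, adjusted p = 0.0156). Tkt (transketolase) rose in ΔTAD macrophages (0.28 ± 0.0331, adjusted p = 7.11e-08), and Rpe, which makes xylulose 5-phosphate, fell in knock-out macrophages (-0.19 ± 0.0407, adjusted p = 0.000249). Without ΔTAD replicate 1, the library rich in ribosomal RNA, 13 members rose and 12 fell in ΔTAD macrophages, and 2 were higher and 19 lower in knock-out than in ΔTAD macrophages.

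Per length, levels of the detected members spanned more than 2 orders of magnitude. RPKM is the TMM-scaled CPM divided by the length of all annotated exons in kilobases, so that a gene with many unused exons reads low. The highest were Aldoa (mean over 9 libraries 663 RPKM), Pkm (571), Ldha (565) and Tpi1 (359), and the lowest Pfkfb3 (2.92), Pfkfb4 (6.19) and Rpia (8.05). In wild-type macrophages Aldoa (651 ± 19.8 RPKM, SD, n = 3) and Pkm (638 ± 9.48) did not differ beyond their spread, and Ldha stood at 607 ± 11.6. In knock-out macrophages Aldoa (629 ± 7.01) lay above Pkm (530 ± 10.9) and Ldha (494 ± 11.3), and in ΔTAD macrophages Ldha (595 ± 8.58) lay between Aldoa (709 ± 19.7) and Pkm (543 ± 16.4). Gpi1 and G6pdx did not differ beyond their spread in wild-type macrophages (112 ± 2.73 and 116 ± 3.56 RPKM), and Gapdh stood at only 14.6 RPKM, with the shared sequence given above. Together the members took 15177 ± 273 CPM in wild-type macrophages, 13488 ± 112 CPM in knock-out macrophages and 15025 ± 364 CPM in ΔTAD macrophages. The knock-out libraries (13363 to 13578) lay below all others, and wild-type (14991 to 15490) and ΔTAD libraries (14654 to 15380) overlapped. Scaled by library size alone, ΔTAD libraries spanned 13012 to 15419 CPM, a range that overlapped the knock-out libraries (13537 to 13770). The low value was that of ΔTAD replicate 1, the library rich in ribosomal RNA. Replicates 2 and 3 (15031 and 15419 CPM) lay above all knock-out libraries.

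**Figure D3:**
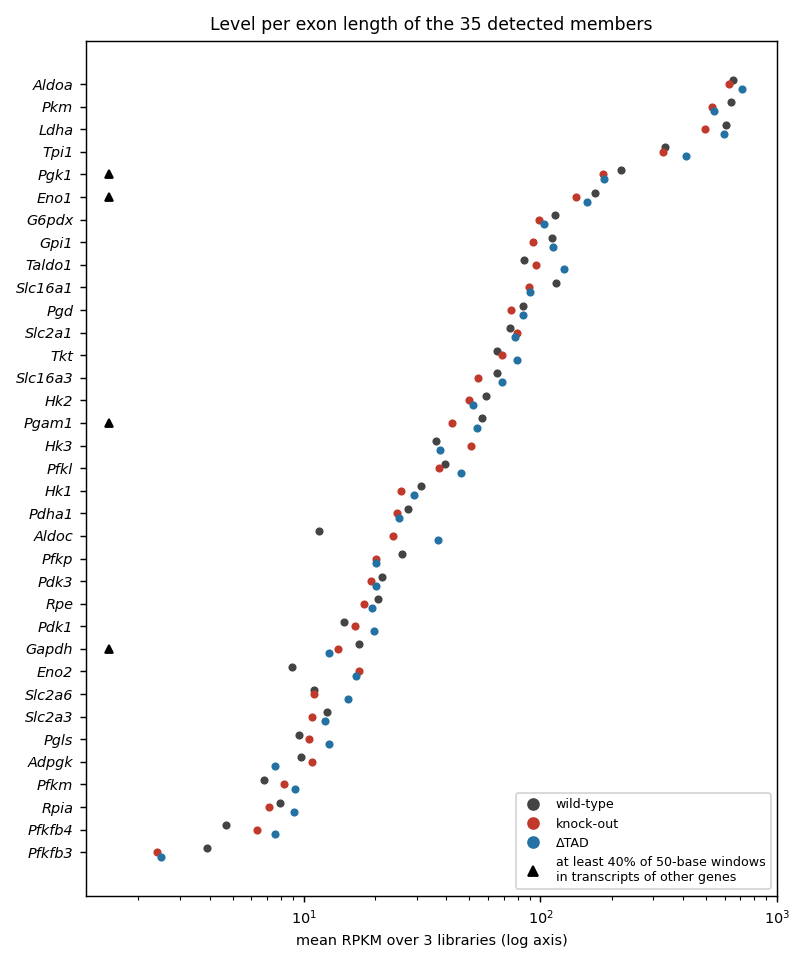
Mean level per exon length of the 35 detected members in wild-type (grey), knock-out (red) and ΔTAD (blue) macrophages, in RPKM on a log axis, ordered by the mean over 9 libraries. Triangles mark members of which at least 40% of the 50-base windows occur in transcripts of other genes. Aldoa, Pkm, Ldha and Tpi1 stand above the others, and the genotypes part most in Aldoc, at 11.6, 23.7 and 36.9 RPKM.

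The isozymes of a step also changed in proportion to each other, which is described here without a test and over the listed members only. Of the hexokinase RPKM, Hk3 made up 28.6 ± 0.713% in wild-type macrophages, 40.1 ± 0.415% in knock-out macrophages and 31.6 ± 0.715% in ΔTAD macrophages, without overlap between the groups. The summed hexokinase level was 126 ± 3.1 RPKM in wild-type, 127 ± 2.24 RPKM in knock-out and 119 ± 3.16 RPKM in ΔTAD macrophages. The ΔTAD libraries (115 to 122 RPKM) lay below the wild-type libraries (123 to 129 RPKM). Of phosphofructokinase, Pfkp fell from a share of 35.9 ± 0.546% in wild-type macrophages to 30.8 ± 0.341% in knock-out and 26.7 ± 0.616% in ΔTAD. The annotated exons span 13401 bases in Pfkp and 6675 in Pfkl, so that the size of this share depends on the annotation. Aldoc stayed a minor aldolase, from 1.75 ± 0.0805% of the summed RPKM in wild-type to 3.63 ± 0.136% in knock-out and 4.95 ± 0.0351% in ΔTAD macrophages. Eno2 made up 4.99 ± 0.0148% of Eno1 and Eno2 together in wild-type libraries, 10.8 ± 0.292% in knock-out libraries and 9.61 ± 1.04% in ΔTAD libraries. With Eno3, which is outside the list, the Eno2 share was 4.50%, 9.56% and 8.57%. Eno1b (24.6, 21.2 and 23.6 RPKM), also outside the list, was not counted. It shares 50-base windows with Eno1, of whose windows 49.5% occur in other genes, so that the enolase shares are uncertain. Of Pfkfb3 and Pfkfb4 together, Pfkfb3 gave 45.3 ± 1.72% in wild-type libraries, 27.4 ± 3.25% in knock-out libraries and 24.8 ± 2.61% in ΔTAD libraries. Counting Pfkfb1 and Pfkfb2 too, it gave 34.8 ± 1.47%, 21.0 ± 2.37% and 19.96 ± 2.12%. Of Slc16a1 and Slc16a3 together, Slc16a3 gave 36.1 ± 0.842%, 37.7 ± 0.287% and 43.0 ± 2.23%.

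**Figure D4:**
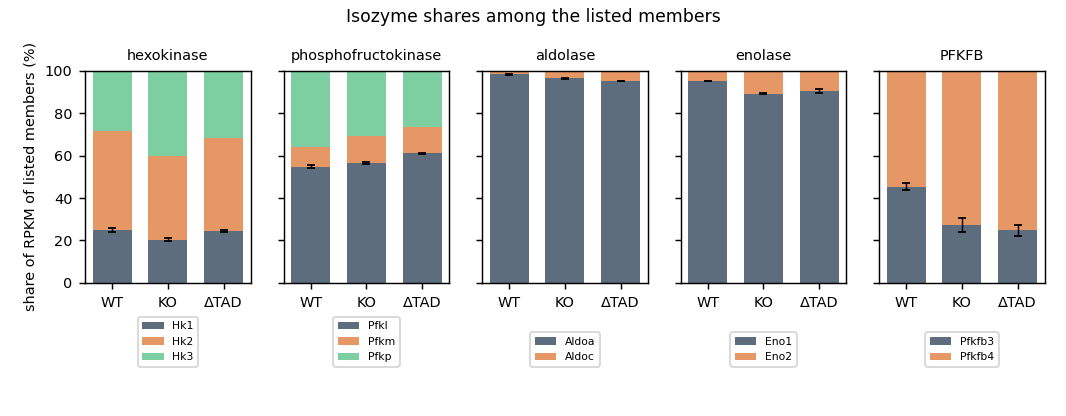
Share of each isozyme in the summed RPKM of the listed members of its family (y axis, percent, mean of 3 libraries), by genotype. Error bars give the standard deviation of the lowest segment. The Hk3 segment is tallest in knock-out macrophages (40.1%), and the Pfkfb3 segment shrinks from 45.3% in wild-type to 27.4% and 24.8% in the edited genotypes.

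The positions of the members do not place them on the chromosomes that differed as a whole between these cell lines. The tested genes of chromosome 12 had medians of -0.52 and -0.54 on the log2 scale in knock-out and ΔTAD against wild-type macrophages, those of chromosome 17 had 0.48 and 0.50, and no member lies on either. Within 5 Mb on each side of a member, the median of the tested genes ranged from -0.11 near Pfkfb3 to 0.25 near Pfkp in knock-out macrophages, and from -0.18 near Pdk3 to 0.21 near Gapdh in ΔTAD macrophages. Near Aldoc it was -0.09 and -0.10, and near Eno2 0.09 and 0.18. Near Tpi1 it was 0.10 and 0.18, where Tpi1 itself gave -0.03 and 0.30.

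A list of 58 other genes of these pathways, such as further isozymes, mitochondrial pyruvate carriers and enzymes at branch points, was read from the same fit. Of the 40 that were tested, 10 rose and 12 fell in knock-out macrophages (55.0% called, against 45.2% of all genes), and 14 rose and 7 fell in ΔTAD macrophages (52.5% against 49.7%), and 1 was higher and 12 were lower in knock-out than in ΔTAD macrophages (32.5% against 33.0%). Of the 10 raised in knock-out macrophages, 4 (Mpc1, Glo1, Pgp and Galm, looked up after their values were seen) lie on chromosome 17, and these also rose in ΔTAD macrophages. For the comparisons in the order counted above, medians of -0.07, 0.06 and -0.09 on the log2 scale were found over the 40 tested genes of this list. The only one with an absolute change of at least 1 was Mpc1, a subunit of the mitochondrial pyruvate carrier, which lies on chromosome 17. It had 3.39, 2.84 and 2.36 CPM in wild-type, 6.85, 4.95 and 6.80 CPM in knock-out and 4.34, 6.29 and 6.62 CPM in ΔTAD libraries. The edited libraries were all higher than the wild-type libraries (1.11 ± 0.177 in knock-out and 1.02 ± 0.177 in ΔTAD macrophages). Hif1a, the oxygen-regulated subunit of the factor that binds ACGTG in many glycolytic genes, was singled out after its values were seen. It lies on chromosome 12, and it fell by 0.60 in knock-out (SE 0.0346, adjusted p = 2.04e-13) and by 0.81 in ΔTAD macrophages (SE 0.0348, adjusted p = 5.5e-16). Arnt, the other subunit of this factor, was also looked up after its values were seen. It rose by 0.35 in knock-out (SE 0.0393, adjusted p = 4.5e-08) and by 0.31 in ΔTAD macrophages (SE 0.0393, adjusted p = 2.48e-07). The part of Hif1a and Arnt in the members' levels was not tested.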

How the data were processed

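Gene expression was measured by RNA sequencing in 9 libraries, 3 for each of the genotypes that the labels name. The authors removed ribosomal RNA, trimmed reads (Trimmomatic), aligned them to GRCm38 (Hisat2) and counted them per gene (HTSeq). They deposited raw counts per gene, whole numbers without normalization, for 55487 identifiers and 5 tally lines per library. Between 46.65% and 53.23% of the records were counted on genes, 11.78% to 16.28% were set aside as not uniquely aligned and 0.974% to 1.24% as ambiguous. The tally lines were left out of library sizes and tests. The mode and strand setting of the counting are not given in the sources used here.

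Symbols were matched to identifiers through the GENCODE M21 annotation of GRCm38. Aldoa had 2 identifiers, and the one that lies on the RefSeq gene was used, while the other had 21 to 46 counts per library. The counts were tested with edgeR 4.0.16 (R 4.3.3) after filterByExpr (minimum count 10, minimum total count 15), which left 14312, and libraries were scaled by TMM, with factors between 0.888 and 1.027. A single quasi-likelihood model held the 3 genotype means over the 9 libraries (common biological coefficient of variation 0.0468). Calls were made at the study's threshold, a p under 0.01 after Benjamini-Hochberg adjustment. The standard error is the fold change on the log2 scale over the root of F. Errors of levels are SDs over 3 libraries. The scripts were tested on simulated data.

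The members and lists were chosen with earlier results of these data known. Values in every library are given for members called with a log2 fold change of 0.5 or more in size against wild-type, for those called in opposite directions and for the member of each role with the highest mean RPKM. Other pathway genes are named from a size of 1, and further ones were chosen after their values were seen. Alternatives were DESeq2 1.42.0 and limma-voom (limma 3.58.1), DESeq2's size factors, library size alone and TMM without chromosomes 12 and 17 as the scaling, other filters and thresholds, models of the genotypes compared alone, a block for the replicate number, and leaving out each library in turn.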

Additional observations from a re-analysis of the deposited data

Results flagged for a closer look

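Adpgk and Rpia moved in opposite directions against wild-type macrophages in every library of the edited genotypes. The difference between knock-out and ΔTAD macrophages was tested directly by edgeR's quasi-likelihood test, adjusted after Benjamini-Hochberg. It was 0.52 ± 0.0352 for Adpgk (adjusted p = 1.7e-11), with all 3 knock-out libraries above all 3 ΔTAD libraries. For Rpia it was -0.35 ± 0.0461 (adjusted p = 1.47e-06), with all 3 knock-out libraries below all 3 ΔTAD libraries. Both kept an adjusted p under 0.01 in every refit, while that of Rpia is below the log2 size of 0.5 required in another alternative. Without ΔTAD replicate 1, the library rich in ribosomal RNA, they were 0.52 and -0.33. What sets these genes apart was not tested.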

How the results depend on the processing

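No called member changed direction under any alternative. Of 73 calls of members over the 3 comparisons, 55 kept their side of the threshold under all 18 alternatives that refit the model at this threshold. With library size alone, 5 members were higher in knock-out than in wild-type and 12 were lower in knock-out than in ΔTAD macrophages, 5 other pathway genes were lower in knock-out than in ΔTAD, and the members summed to 15556 CPM in wild-type libraries, 13683 in knock-out libraries and 14487 in ΔTAD libraries. With a log2 fold change past 0.5 in size also required, 2 members rose and 1 fell in knock-out, 4 rose and 1 fell in ΔTAD, and 1 was higher and 1 lower in knock-out than in ΔTAD macrophages. Leaving out 1 library at a time, 6 to 8 members rose and 18 to 20 fell in knock-out, 13 rose and 10 to 12 fell in ΔTAD, and 2 to 3 were higher and 19 lower in knock-out than in ΔTAD. With library size alone the calls of Adpgk, Pdk1, Pdk3, Pdha1, Pgd, Rpia and Taldo1 in knock-out, of Pfkl, Aldoa and Rpia in ΔTAD, and of Slc2a3, Hk1, Pfkfb4, Aldoa, Eno1, Pgd and Tkt between the edited genotypes were lost. Over all alternatives, Rpia in knock-out macrophages was lost under 12 alternatives and Pdk3 under 9. Libraries with the same replicate number did not deviate together (Pearson's r over 14312 genes from -0.072 to 0.020), so that the numbers do not pair them. With the replicate number as a block, 8 members rose and 19 fell in knock-out against wild-type, and the call lost was Rpia. The other counts were 13, 11, 2 and 19 as before. Levels under the floor of 3 counts could not be seen at this depth.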

Other observations

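Several further isozymes known from other tissues had few or no counts. Pgk2 and Ldhc (forms of the testis), Pdk4, Tktl1 and Tktl2 had 0 counts in all 9 libraries. Hkdc1 and Fbp2 had 1 count each over the 9 libraries, Pgam2 and Pklr 2, Fbp1 4, Gapdhs and Slc16a8 6 and Ldhd 9. Slc2a5 had 15 and Gpd1 had 75. None of these genes was tested.

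Some further genes around the pathways were chosen after their values were seen and are given with edgeR's log2 fold changes in knock-out and ΔTAD macrophages. Gpd2, the mitochondrial enzyme of the glycerol phosphate shuttle, fell in both (-0.41 ± 0.0358 and -0.51 ± 0.0359). Prps1 and Prps2, which make phosphoribosyl pyrophosphate from ribose 5-phosphate, fell in both (-0.27 and -0.26, and -0.36 and -0.29). Pgm1, which links glycogen to glucose 6-phosphate, rose in both (0.33 ± 0.0381 and 0.62 ± 0.0371). Slc16a7, a monocarboxylate transporter, rose in both (0.59 ± 0.0896 and 0.66 ± 0.0882), from 10.0 to 11.5 CPM in wild-type libraries to 15.6 to 17.3 CPM in knock-out and 15.6 to 18.9 CPM in ΔTAD libraries. Txnip, which restrains glucose uptake, fell in knock-out (-0.24 ± 0.0333) and differed by 0.06 (adjusted p = 0.141) in ΔTAD macrophages.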
